A study of Rattus norvegicus with 9 samples.

Results

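The chemokines, interleukins and interleukin receptors of cultured rat cells were described across Schwann cells made from skin, Schwann cells of the nerve and the skin cells that the first kind came from. Members were all array features whose only gene symbol began with Ccl, Cxcl or Il followed by a digit, with 1 feature for each gene, and the rule uses no difference between groups. There were 96 such genes among 14506 genes with a feature of their own: 31 chemokines (19 of the CC and 12 of the CXC type), 31 interleukins, 28 receptor chains and 6 antagonists or decoy receptors.

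The 9 arrays (Affymetrix Rat Gene 1.0 ST, a whole-transcript design) fall into 3 groups of 3 independent cultures from adult Sprague Dawley rats, with no genotype, treatment or exact age given. The first group holds Schwann cells that were made out of dorsal trunk SKPs (skin-derived precursors), the second Schwann cells of the sciatic nerve, and the third SKPs taken from dorsal trunk skin, which are cells that grow as floating spheres. Schwann cells of both origins were collected at confluence in Schwann cell medium after a passage, while SKPs were collected as spheres after 1 or 2 passages, so cell type and culture form cannot be told apart. The labels describe the SKP arrays as reanalyses of samples deposited earlier, and that batch cannot be told apart from the SKP group. They also name dermis as the tissue on every array, so the cell type label was used for grouping.

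Chemokines are small secreted proteins that attract leukocytes through G-protein-coupled receptors, and interleukins act through receptor chains, several of which are shared between cytokines. The gp130 chain (Il6st) serves the IL-6 family, the common gamma chain (Il2rg) serves the IL-2, IL-4 and IL-7 group, and Il17ra serves most of the IL-17 family. In injured peripheral nerve, Schwann cells are known to release chemokines and gp130 cytokines, and dermal stromal cells are known as a source of chemokines and of IL-7 and IL-33.

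All levels are the deposited log2 values, and a difference is between group means on that log2 scale. The array medians were 6.37, 6.44 and 6.33 in SKP-derived Schwann cells, 6.87, 6.86 and 6.82 in nerve Schwann cells and 6.27, 6.27 and 6.2 in SKPs. The nerve arrays were thus offset upward, so each difference was also computed after cyclic loess, which removes intensity-dependent offsets between arrays. A gene is called at a limma adjusted p under 0.05, and "rose" or "fell" below means called in that direction under both scalings. No detection calls were used, so no gene is said to be present or absent. Of the 96 members, 12 lay above the array median on all 9 arrays, 45 lay below it on all 9 and are termed dim, and 39 lay above it on some. Schwann cell markers (9 measured) averaged between 10.44 and 11.36 on the 6 Schwann cell arrays and between 6.11 and 6.64 in SKPs. In bulk RNA, fewer cells of a type and less RNA per cell cannot be told apart.

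Against SKPs, 11 members rose in SKP-derived Schwann cells and 17 fell, which compares with 17.7% and 21.4% of all genes, so the members were not called more often than genes in general. In nerve Schwann cells 24 members rose and 9 fell, against 22.4% and 14.9% of all genes. The median member differed by 0.00 in SKP-derived Schwann cells minus SKPs, with -0.01 over all genes, and by 0.59 in nerve Schwann cells minus SKPs, with 0.46 over all genes. After cyclic loess nerve minus SKP gave -0.03 for the members and -0.03 for all genes. Both comparisons use the same SKP arrays. By class, the SKP-derived cells had 2 chemokines higher and 3 lower, 6 interleukins higher and 5 lower, and 3 receptor chains higher and 7 lower. The nerve cells had 8 chemokines higher and 2 lower, 9 interleukins higher and 2 lower, and 7 receptor chains higher and 4 lower.

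**Figure D1:**
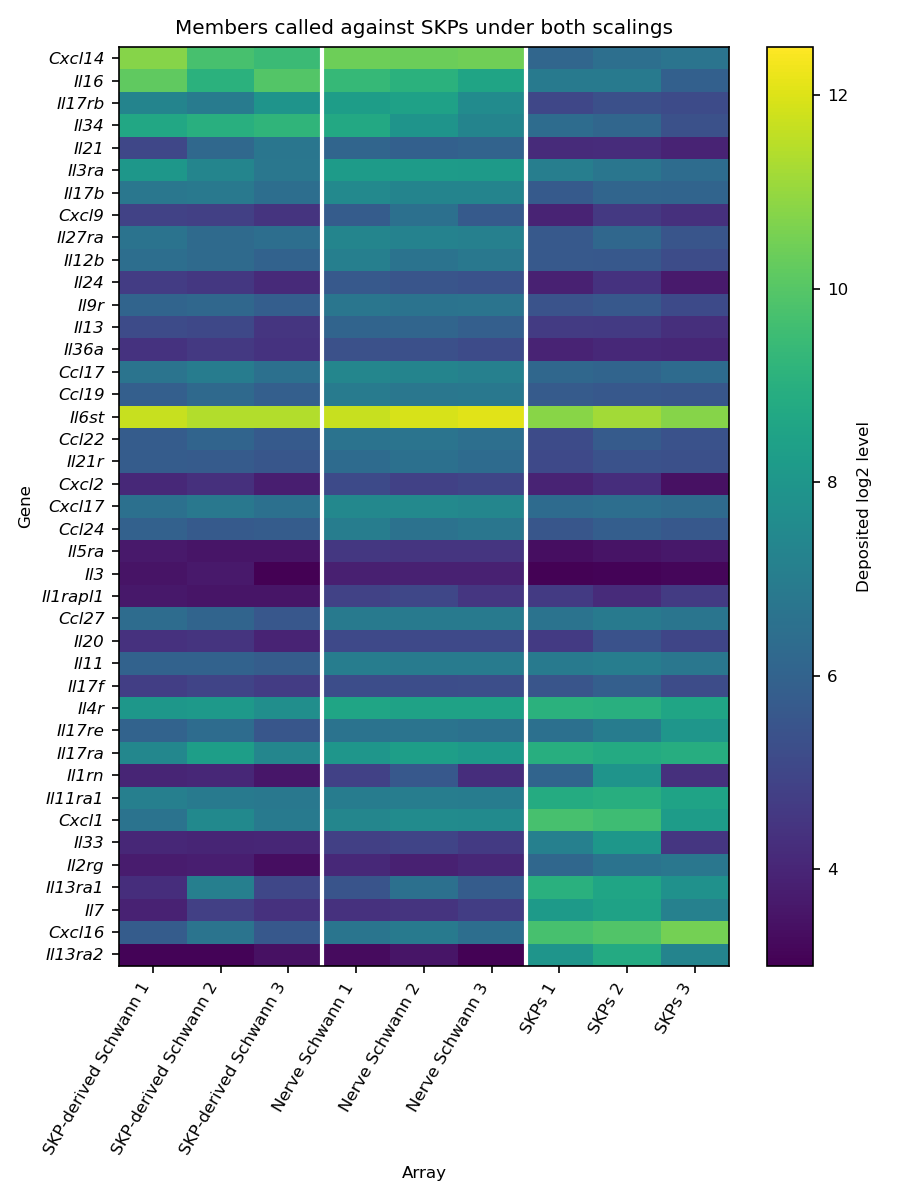
Deposited log2 level (colour) of the 41 members called under both scalings in at least 1 comparison with SKPs, with a row per gene ordered by mean difference from SKPs and a column per array. Cxcl14, Il16, Il34 and Il17rb at the top are brighter on all 6 Schwann cell arrays, and Il7, Cxcl16 and Il13ra2 at the bottom are brighter on all 3 SKP arrays.

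Sequence upstream of the start is shown for a member that rose in both kinds of Schwann cell (Cxcl14), for a pair that fell in both (Cxcl16 and Il13ra1) and for Cxcl1, which fell and carries a match to the NF-kB consensus. Each run is the 250 bases before the RefSeq start of the gene in build GRCr8, written 5′ to 3′ on the gene's strand. They lie at chr17:8322900-8323149 on the plus strand for Cxcl14, chr10:55669951-55670200 on the minus strand for Cxcl16, chrX:120214355-120214604 on the plus strand for Il13ra1 and chr14:17479322-17479571 on the minus strand for Cxcl1. Capitals mark motif matches.
Cxcl14: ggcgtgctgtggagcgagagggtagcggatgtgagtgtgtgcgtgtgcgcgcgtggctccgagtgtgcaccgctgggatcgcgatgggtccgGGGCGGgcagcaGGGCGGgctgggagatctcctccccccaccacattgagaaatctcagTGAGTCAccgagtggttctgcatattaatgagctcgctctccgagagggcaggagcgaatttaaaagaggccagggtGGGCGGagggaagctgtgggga
Cxcl16: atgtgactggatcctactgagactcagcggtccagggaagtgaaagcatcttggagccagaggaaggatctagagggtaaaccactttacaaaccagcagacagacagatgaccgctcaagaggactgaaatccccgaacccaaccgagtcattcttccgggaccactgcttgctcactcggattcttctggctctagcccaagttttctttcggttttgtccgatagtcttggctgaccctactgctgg
Il13ra1: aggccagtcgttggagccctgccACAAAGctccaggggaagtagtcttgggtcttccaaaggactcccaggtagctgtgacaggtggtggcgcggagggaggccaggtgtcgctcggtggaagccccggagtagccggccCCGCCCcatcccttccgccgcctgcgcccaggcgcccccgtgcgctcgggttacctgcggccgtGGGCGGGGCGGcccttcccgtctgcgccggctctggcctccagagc
Cxcl1: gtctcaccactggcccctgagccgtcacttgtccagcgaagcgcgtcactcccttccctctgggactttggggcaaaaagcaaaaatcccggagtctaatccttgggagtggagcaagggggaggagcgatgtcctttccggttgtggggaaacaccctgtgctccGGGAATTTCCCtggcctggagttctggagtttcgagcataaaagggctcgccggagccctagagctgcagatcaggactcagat

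Motifs searched on both strands were the NF-kB consensus, AP-1 (TGANTCA), STAT (TTCNNNGAA), SOX (ACAANG), the TATA box (TATAAA) and the GC box (GGGCGG). In Cxcl14 the capitals are 3 GC boxes and an AP-1 match 99 to 93 bases before the start. In Il13ra1 they are a SOX match and 3 GC boxes, a pair of which share a base, and in Cxcl1 they are NF-kB matches on the 2 strands that overlap between 84 and 74 bases before the start. Cxcl16 held none of these letters in this window. The NF-kB consensus occurred in 14 of the 75 members with an upstream sequence, against 6.41% of 27457 promoters of the same length, and SOX in 23 of 75, against 36.4%. A TATA box was found in 17 of 75 members, against 13.1% of promoters, AP-1 in 9, against 6.36%, STAT in 8, against 7.52%, and the GC box in 24, against 32.4%. A match describes letters and does not show binding.

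Among chemokines, Cxcl14, which attracts monocytes and immature dendritic cells, was the member with the largest rise in both kinds of Schwann cell. Its level was 10.78, 9.73 and 9.47 in SKP-derived Schwann cells, 10.40, 10.37 and 10.43 in nerve Schwann cells, and 6.14, 6.46 and 6.65 in SKPs. All 6 Schwann cell arrays lay above all 3 SKP arrays. The difference was 3.58 (SE 0.30, limma adjusted p = 2.56e-05) for SKP-derived minus SKP and 3.99 (SE 0.30, limma adjusted p = 1.36e-05) for nerve minus SKP.

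Cxcl16, a membrane-bound chemokine and scavenger receptor that is the ligand of CXCR6, went the other way. It read 5.77, 6.64 and 5.63 in SKP-derived Schwann cells, 6.70, 6.92 and 6.44 in nerve Schwann cells, and 9.72, 9.93 and 10.53 in SKPs, with no overlap. The difference was -4.05 for SKP-derived minus SKP (SE 0.30, limma adjusted p = 1.19e-05) and -3.37 for nerve minus SKP (SE 0.30, limma adjusted p = 2.89e-05). Cxcl1, a neutrophil attractant, also fell, with 6.61, 7.50 and 6.86 in SKP-derived Schwann cells, 7.36, 7.58 and 7.56 in nerve Schwann cells and 9.75, 9.55 and 8.26 in SKPs. Its lowest SKP array still lay above every Schwann cell array, and the differences were -2.20 for SKP-derived minus SKP (limma adjusted p = 0.00123) and -1.69 for nerve minus SKP (limma adjusted p = 0.00299).

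Further chemokines changed in Schwann cells. Ccl17, a ligand of CCR4, rose by 0.54 in SKP-derived Schwann cells (limma adjusted p = 0.0219) and by 1.07 in nerve Schwann cells (limma adjusted p = 0.000368). The first of these calls was lost without SKP-derived array 2 (limma adjusted p = 0.0537), SKP array 1 (0.051) or SKP array 2 (0.067). After cyclic loess the Ccl17 rises were 0.48 in SKP-derived and 0.53 in nerve Schwann cells. Ccl27, a skin-homing chemokine made by keratinocytes, fell by 0.73 in SKP-derived Schwann cells (limma adjusted p = 0.014) and differed by 0.14 in nerve minus SKP (limma adjusted p = 0.54). After cyclic loess that nerve difference was -0.44 (limma adjusted p = 0.0616). In nerve Schwann cells the interferon-induced Cxcl9 rose by 1.71 (limma adjusted p = 0.000367), and by 0.98 after cyclic loess (limma adjusted p = 0.00842). Cxcl9 is dim, with 5.77, 6.51 and 5.70 in nerve Schwann cells and 3.93, 4.59 and 4.32 in SKPs. Cxcl10 was 6.86, 8.94 and 6.61 in nerve Schwann cells and 6.07, 5.98 and 5.87 in SKPs. Its nerve minus SKP difference was 1.50 as deposited (limma adjusted p = 0.0312), and 0.91 and not called after cyclic loess (limma adjusted p = 0.187). The deposited call was lost without SKP array 1 (limma adjusted p = 0.0605), 2 (0.0709) or 3 (0.0641). The other chemokines that rose in nerve Schwann cells were Ccl19, Ccl22, Ccl24, Cxcl2 and Cxcl17, by 1.07 to 1.22 as deposited and by 0.43 to 0.56 after cyclic loess. Of these, Ccl22 and Cxcl2 are dim, and Ccl19 and Ccl24 each lay above the array median on 1 array only. The rise of Cxcl2 was not called under every scaling tried.

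Among interleukins, Il16 and Il34 rose in both kinds of Schwann cell. Il16, whose product signals through CD4 and attracts T cells, was 10.17, 9.07 and 9.94 in SKP-derived Schwann cells, 9.37, 9.07 and 8.53 in nerve Schwann cells, and 6.92, 6.93 and 5.92 in SKPs. The groups of Schwann cells overlapped each other, and neither overlapped SKPs. The difference from SKPs was 3.14 (SE 0.36, limma adjusted p = 0.000161) for the SKP-derived and 2.40 (SE 0.36, limma adjusted p = 0.000444) for the nerve cells.

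Il34 encodes a ligand of the CSF-1 receptor, through which it maintains Langerhans cells and microglia in mice. It read 8.69, 9.01 and 9.23 in SKP-derived Schwann cells, 8.72, 7.92 and 7.27 in nerve Schwann cells, and 6.34, 6.15 and 5.35 in SKPs. Every Schwann cell array was above every SKP array, and the difference was 3.03 (SE 0.37, limma adjusted p = 0.000209) for SKP-derived minus SKP and 2.02 (SE 0.37, limma adjusted p = 0.00117) for nerve minus SKP. Csf1, the other ligand of that receptor, moved the opposite way, with 9.12, 8.63 and 8.63 in SKP-derived Schwann cells, 9.52, 9.83 and 9.68 in nerve Schwann cells and 11.52, 11.83 and 10.35 in SKPs. Csf1 fell by 2.44 in the SKP-derived (limma adjusted p = 0.000417) and by 1.56 in the nerve cells (limma adjusted p = 0.00288).

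Il7, the growth factor that stromal cells supply to lymphocytes, fell in both. It was 3.92, 4.81 and 4.35 in SKP-derived Schwann cells, 4.36, 4.44 and 4.72 in nerve Schwann cells, and 8.19, 8.46 and 7.16 in SKPs, with a wide gap between Schwann cells and SKPs. The difference was -3.58 (SE 0.33, limma adjusted p = 4.65e-05) for SKP-derived minus SKP and -3.44 (SE 0.33, limma adjusted p = 4.63e-05) for nerve minus SKP. Its receptor chain Il7r was dim and not called, differing by -0.31 in SKP-derived minus SKP (limma adjusted p = 0.386) and by 0.14 in nerve minus SKP (limma adjusted p = 0.668).

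Il21, a T cell cytokine, was low on most arrays, with 5.01, 6.22 and 6.74 in SKP-derived Schwann cells, 6.10, 5.93 and 6.03 in nerve Schwann cells, and 4.17, 4.20 and 3.96 in SKPs. It lay above the array median on 1 array only, yet the groups did not overlap SKPs and it rose by 1.88 (limma adjusted p = 0.0025) in the SKP-derived and by 1.91 (limma adjusted p = 0.00132) in the nerve cells. Il17b, a ligand of Il17rb, rose by 0.74 (limma adjusted p = 0.00619) in SKP-derived and by 1.40 (limma adjusted p = 0.000129) in nerve Schwann cells. Il12b, the subunit shared by IL-12 and IL-23, rose by 0.73 in SKP-derived (limma adjusted p = 0.0116) and by 1.35 in nerve Schwann cells (limma adjusted p = 0.000275). After cyclic loess the rises in SKP-derived and nerve Schwann cells were 1.78 and 1.15 for Il21. They were 0.68 and 0.85 for Il17b, and 0.62 and 0.69 for Il12b, in the same order.

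Further rises in nerve Schwann cells were of dim genes, among them Il24 of the IL-10 family at 1.53 (0.87 after cyclic loess) and the T cell cytokine Il13 at 1.49 (0.74 after cyclic loess). Of the 24 members that rose in nerve Schwann cells, 10 were dim. In SKP-derived Schwann cells Il11, a gp130 cytokine, fell by 0.96 (limma adjusted p = 0.000313), with 6.0, 6.0 and 5.81 against 6.87, 7.04 and 6.78 in SKPs. In nerve minus SKP its difference was 0.07 as deposited. It turned to -0.49 after cyclic loess, where it was called (limma adjusted p = 0.00527). Il17f and Il20 are dim and fell by 0.71 (limma adjusted p = 0.00924) and 0.77 (limma adjusted p = 0.0151) in SKP-derived Schwann cells. In nerve minus SKP they differed by -0.27 and 0.09 as deposited and were not called. After cyclic loess both were called lower there, at -1.03 (limma adjusted p = 0.000582) and -0.61 (limma adjusted p = 0.0203). Il36a, an epithelial IL-1 family ligand that is also dim, rose by 0.44 in SKP-derived (limma adjusted p = 0.0191, and 0.0527 without SKP array 1) and by 1.27 in nerve Schwann cells (limma adjusted p = 4.68e-05). After cyclic loess the Il36a rises were 0.43 and 0.63 in the same order. The 45 dim members lay between 2.89 and 6.31 in SKP-derived Schwann cells, between 3.42 and 6.73 in nerve Schwann cells and between 3.03 and 6.18 in SKPs.

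**Figure D2:**
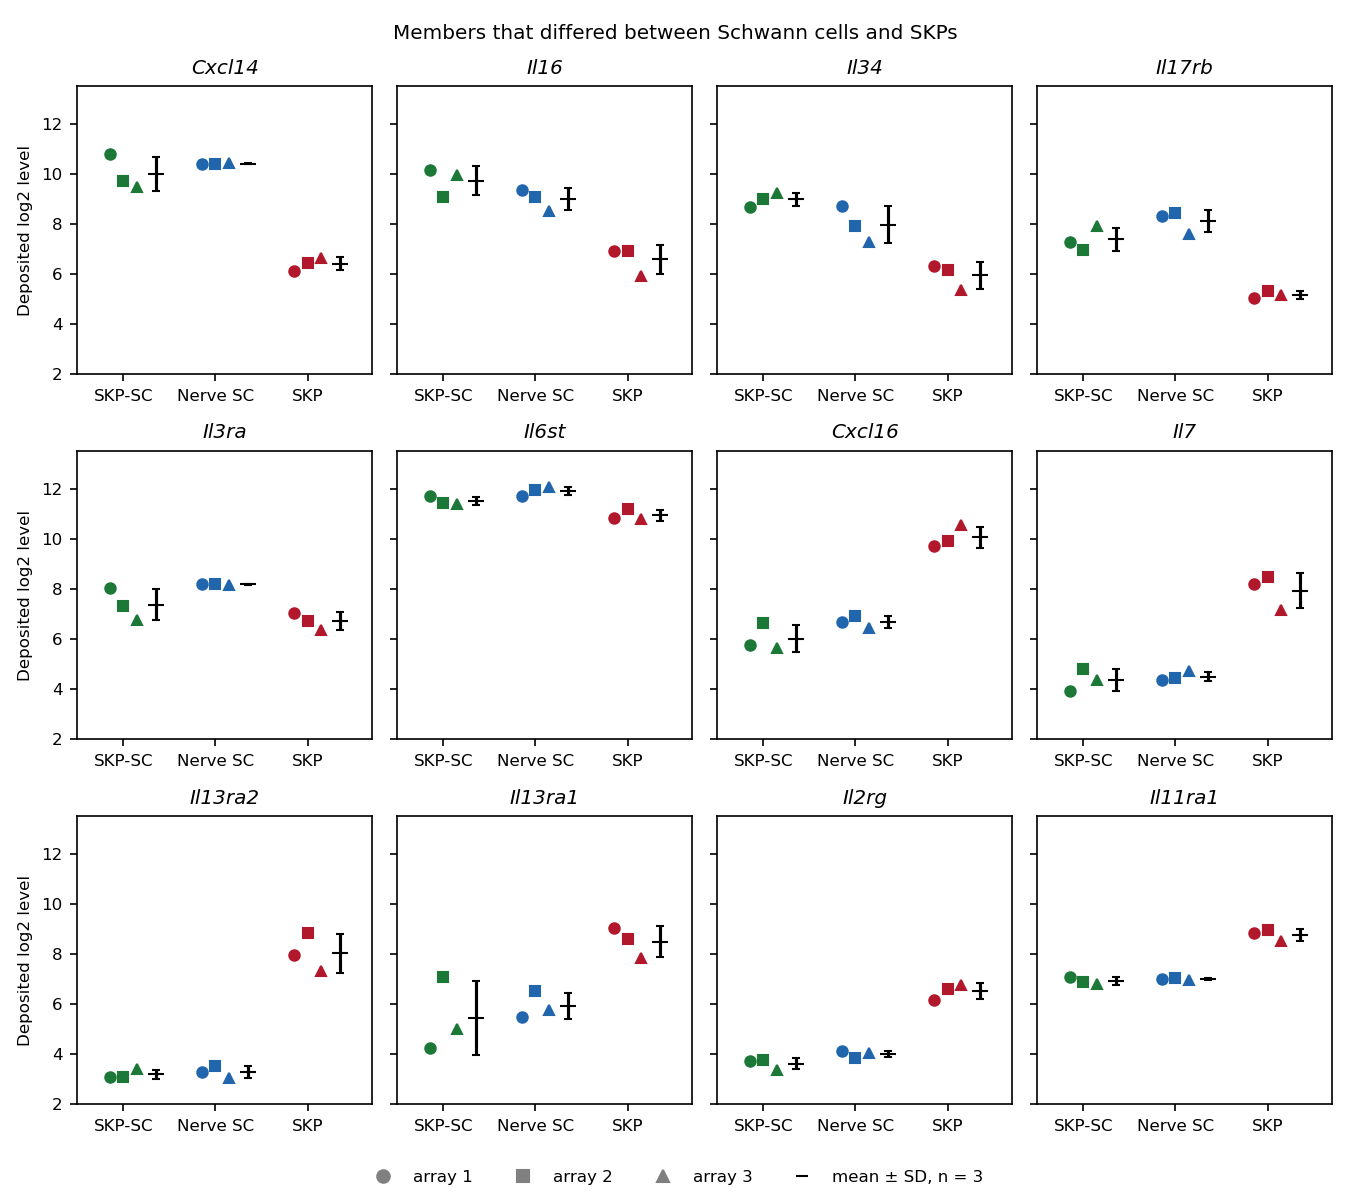
Deposited log2 level of 12 members on each array, with SKP-derived Schwann cells (SKP-SC) left of nerve Schwann cells (Nerve SC) and SKPs; symbols mark arrays 1, 2 and 3, and black bars give the mean ± SD (n = 3). Cxcl14, Il16, Il34, Il17rb and Il6st are higher in both kinds of Schwann cell, Il3ra of SKP-derived Schwann cells overlaps that of SKPs, and the last 6 genes are lower in both.

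Among receptor chains, Il17rb, which binds IL-17B and IL-25, was 7.28, 6.96 and 7.90 in SKP-derived Schwann cells, 8.30, 8.45 and 7.60 in nerve Schwann cells, and 5.03, 5.31 and 5.16 in SKPs. All Schwann cell arrays lay above the SKPs, and the difference was 2.21 (SE 0.28, limma adjusted p = 0.000235) for SKP-derived minus SKP and 2.95 (SE 0.28, limma adjusted p = 3.87e-05) for nerve minus SKP. Il17ra, its partner chain and the shared chain of the family, went the other way, with 7.40, 8.32 and 7.37 in SKP-derived Schwann cells, 7.98, 8.32 and 8.12 in nerve Schwann cells and 8.96, 8.80 and 8.92 in SKPs. Il17ra fell by 1.20 (limma adjusted p = 0.00336) in the SKP-derived and by 0.75 (limma adjusted p = 0.02) in the nerve cells, and the nerve call was lost without nerve array 1 (limma adjusted p = 0.0701), nerve array 3 (0.0526) or SKP array 1 (0.0525). Il17re, the IL-17C receptor, fell by 1.20 in SKP-derived Schwann cells (limma adjusted p = 0.0187), a call lost without SKP-derived array 3 (limma adjusted p = 0.0659). In nerve minus SKP it differed by -0.56 as deposited (limma adjusted p = 0.169). After cyclic loess it was called there, at -1.14 (limma adjusted p = 0.0217), beside -1.27 in SKP-derived minus SKP.

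The IL-4 and IL-13 receptor chains were lower in Schwann cells. Il13ra2, a decoy that binds IL-13, read 3.11, 3.08 and 3.42 in SKP-derived Schwann cells, 3.29, 3.52 and 3.07 in nerve Schwann cells, and 7.94, 8.82 and 7.30 in SKPs. This was the largest fall among the members, at -4.81 (SE 0.32, limma adjusted p = 8.47e-06) for SKP-derived minus SKP and -4.72 (SE 0.32, limma adjusted p = 8.4e-06) for nerve minus SKP. Il13ra1, the signalling IL-13 chain, read 4.26, 7.10 and 5.01 in SKP-derived Schwann cells, 5.48, 6.51 and 5.77 in nerve Schwann cells and 9.03, 8.60 and 7.82 in SKPs. SKP-derived array 2 was closest to the SKPs, and the difference was -3.03 (SE 0.64, limma adjusted p = 0.00459) for the SKP-derived and -2.56 (SE 0.64, limma adjusted p = 0.00628) for the nerve cells. Il4r, its partner chain, was 8.03, 8.14 and 7.68 in SKP-derived Schwann cells and 9.08, 9.0 and 8.60 in SKPs, and fell by 0.94 (limma adjusted p = 0.00202). In nerve minus SKP it differed by -0.37 (limma adjusted p = 0.0865), and by -0.51 without SKP array 3 (limma adjusted p = 0.0221). After cyclic loess the nerve difference of Il4r was called, at -0.65 (limma adjusted p = 0.0286).

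Il2rg, the common gamma chain, was 3.72, 3.78 and 3.36 in SKP-derived Schwann cells, 4.11, 3.87 and 4.04 in nerve Schwann cells, and 6.16, 6.61 and 6.77 in SKPs. It fell by 2.89 (SE 0.19, limma adjusted p = 7.14e-06) in the SKP-derived and by 2.51 (SE 0.19, limma adjusted p = 1.35e-05) in the nerve cells. Of the 16 members of the common gamma chain group, which here also holds the IL-13 chains, 2 rose and 5 fell in SKP-derived and 4 rose and 4 fell in nerve Schwann cells. Of all genes 17.7% rose and 21.4% fell in the SKP-derived cells, and 22.4% rose and 14.9% fell in the nerve cells. Il9r, the IL-9 binding chain, was dim and rose by 0.63 in the SKP-derived (limma adjusted p = 0.0102) and by 1.28 in the nerve cells (limma adjusted p = 0.00015). After cyclic loess these rises were 0.52 and 0.59.

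In the IL-6 and IL-12 family, the gp130 chain Il6st was 11.71, 11.42 and 11.40 in SKP-derived Schwann cells, 11.72, 11.93 and 12.06 in nerve Schwann cells, and 10.83, 11.18 and 10.78 in SKPs. All Schwann cell arrays lay above the SKPs. It rose by 0.98 in nerve Schwann cells (SE 0.16, limma adjusted p = 0.000726), whereas in SKP-derived minus SKP the 0.58 called as deposited (limma adjusted p = 0.018) was 0.41 and not called after cyclic loess (limma adjusted p = 0.0843), nor as deposited without SKP-derived array 1 (0.0677) or SKP array 1 (0.0539). Il11ra1, the chain that gives gp130 its IL-11 specificity, fell in both, with 7.09, 6.89 and 6.79 in SKP-derived Schwann cells, 6.99, 7.04 and 6.98 in nerve Schwann cells and 8.83, 8.94 and 8.50 in SKPs. Its difference was -1.83 for SKP-derived minus SKP (SE 0.15, limma adjusted p = 2.35e-05) and -1.75 for nerve minus SKP (SE 0.15, limma adjusted p = 2.68e-05). Il27ra, a chain of the IL-27 receptor, rose by 0.67 in SKP-derived (limma adjusted p = 0.0165) and by 1.44 in nerve Schwann cells (limma adjusted p = 0.000183), and the call in the SKP-derived cells was lost without SKP-derived array 1 (limma adjusted p = 0.0612) or SKP array 1 (0.0518). After cyclic loess the Il27ra rises were 0.59 in SKP-derived and 0.85 in nerve Schwann cells.

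Some receptor chains were above the array median everywhere and were not called under both scalings in either comparison. They include Il1rap, the accessory chain of the IL-1 and IL-33 receptors, at 8.56, 8.93 and 8.76 in SKP-derived, 8.69, 9.05 and 9.28 in nerve Schwann cells and 9.25, 8.73 and 8.83 in SKPs. Il10rb, shared by the IL-10 family, ranged between 9.16 and 10.17 over the arrays, and Il6r, the IL-6 binding chain, between 6.58 and 7.91. Il3ra, the IL-3 binding chain, rose by 1.48 in nerve Schwann cells (SE 0.29, limma adjusted p = 0.00171) and was not called in the SKP-derived ones, at 0.66 (SE 0.29, limma adjusted p = 0.0962), although it was without SKP-derived array 3 (0.95, limma adjusted p = 0.019). Among the classical inflammatory cytokines, Il1a and Il10 were dim, and Il1b was dim with 4.96, 5.29 and 4.63 in SKP-derived, 6.27, 6.13 and 6.31 in nerve Schwann cells and 5.27, 5.71 and 5.44 in SKPs. The deposited Il1b difference of 0.76 in nerve minus SKP (limma adjusted p = 0.00566) was 0.01 after cyclic loess (limma adjusted p = 0.952), and that of Il10 was 0.70 (limma adjusted p = 0.00356) and 0.08 after cyclic loess (limma adjusted p = 0.686).

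Several members were uneven within groups. A range of 2 or more log2 units between the arrays of a group was found for 11 members in SKPs, 7 in SKP-derived Schwann cells and 1 (Cxcl10) in nerve Schwann cells. After cyclic loess it held for 11, 6 and 1 members in the same order, against 2.54%, 1.39% and 0.296% of all genes. Ccl2, the main monocyte attractant, was 9.59, 12.45 and 9.18 in SKP-derived Schwann cells, 9.44, 10.74 and 8.90 in nerve Schwann cells, and 11.77, 11.51 and 7.46 in SKPs. Array 2 was highest in both kinds of Schwann cell and SKP array 3 was the lowest of all 9, so the groups overlapped widely and no difference was called (0.16 for SKP-derived minus SKP, SE 1.19, limma adjusted p = 0.926; -0.55 for nerve minus SKP, SE 1.19, limma adjusted p = 0.7).

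SKP array 3 was also the low one for the monocyte attractant Ccl7, at 9.56, 8.93 and 5.74 in SKPs, and for Cxcl12, the ligand of CXCR4, at 9.59, 9.52 and 5.86. Ccl7 was 5.41, 6.40 and 5.84 and Cxcl12 6.72, 7.64 and 6.29 in SKP-derived Schwann cells, and in nerve Schwann cells they lay between 6.31 and 6.63 and between 7.09 and 7.19. Neither was called in SKP-derived minus SKP over all arrays, at -2.19 (SE 0.80, limma adjusted p = 0.0526) for Ccl7 and -1.44 (SE 0.85, limma adjusted p = 0.204) for Cxcl12. Without SKP array 3 both were, at -3.36 (limma adjusted p = 4.72e-05) and -2.67 (limma adjusted p = 0.000291). In nerve minus SKP neither was called over all arrays, at -1.65 for Ccl7 (limma adjusted p = 0.0973) and -1.17 for Cxcl12 (limma adjusted p = 0.251). Leaving out SKP array 3 gave -2.82 for Ccl7 (limma adjusted p = 0.000109) and -2.40 for Cxcl12 (limma adjusted p = 0.000374). Without that array 24 members were called lower in SKP-derived minus SKP, against 17 with it, and 17 against 9 in nerve minus SKP. The share of all genes called without that array is not given here, so these counts are not read as particular to the members.

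Many members of the IL-1 family, among them Il33, Il1rl1, Il1rl2, Il1r1 and Il1rn, were also lowest among SKPs on array 3. Others, such as Il1a, Il1f10, Il36a, Il36rn, Il1rapl1, Il1b and Il1rap, were not. The share of all genes lowest on that array is not given here, and its median was also the lowest of the SKP arrays. The pattern is therefore not read as particular to the family. Il33, a nuclear alarmin of stromal cells, read 4.07, 3.97 and 4.02 in SKP-derived Schwann cells, 4.80, 4.93 and 4.60 in nerve Schwann cells, and 7.14, 8.02 and 4.50 in SKPs. It fell by 2.54 in SKP-derived Schwann cells (limma adjusted p = 0.0168, SE 0.70), a call lost without SKP array 1 (limma adjusted p = 0.0589), and by 1.78 in nerve Schwann cells (limma adjusted p = 0.0477), a call lost without any of 8 of the 9 arrays and in which the groups overlapped. Il1rl1, the IL-33 receptor, was 5.74, 8.82 and 8.80 in SKP-derived Schwann cells, 5.48, 5.65 and 5.27 in nerve Schwann cells, and 9.01, 7.91 and 5.10 in SKPs. High and low arrays occurred in both the SKP-derived cells and the SKPs, while the nerve arrays were uniformly low.

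Il1r1, the signalling IL-1 receptor, was 5.92, 8.61 and 6.64 in SKP-derived Schwann cells, 6.82, 7.50 and 6.34 in nerve Schwann cells, and 9.39, 9.01 and 7.13 in SKPs. It was not called, at -1.45 for SKP-derived minus SKP (SE 0.73, limma adjusted p = 0.142) and -1.62 for nerve minus SKP (SE 0.73, limma adjusted p = 0.0776). Without SKP array 3 it was called, at -2.14 for the SKP-derived (limma adjusted p = 0.0319) and -2.31 for the nerve cells (limma adjusted p = 0.0148). Il1rn, the IL-1 receptor antagonist, was 3.97, 4.06 and 3.58 in SKP-derived Schwann cells, 4.85, 5.63 and 4.23 in nerve Schwann cells and 6.08, 7.92 and 4.33 in SKPs. Its difference of -2.24 in SKP-derived minus SKP (SE 0.74, limma adjusted p = 0.0355) was not called when any of 6 arrays was left out, with limma adjusted p between 0.0526 and 0.0943 and a difference of -1.34 without SKP array 2.

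Marker levels were uneven within groups too. The mean of 12 dermal mesenchyme markers was 8.25, 10.02 and 9.07 in SKP-derived Schwann cells, 9.11, 9.87 and 8.75 in nerve Schwann cells, and 12.01, 11.94 and 10.43 in SKPs. It was highest in array 2 of both kinds of Schwann cell, where Ccl2 and Il1r1 were also highest, and lowest among SKPs in array 3; between 9 and 12 of the 12 markers lay above the array median on every array. The part of these levels in the results was not tested. Il6 and Il15, at 7.07 and 6.47, were high in SKP-derived array 2 alone, and the other 8 arrays lay between 4.04 and 5.08 for Il6 and between 4.22 and 5.28 for Il15.

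SKP array 1 stood apart in myeloid genes. The chemokine Ccl3 was 7.99, 5.74 and 5.26 in SKPs, the chemokine Ccl6 7.91, 4.69 and 3.95, and Il18, an inflammasome-processed cytokine, 6.27, 3.70 and 3.66, with no other array above 5.78, 5.26 and 3.92 for the same genes. Of 16 macrophage markers, 13 lay above the array median on that array, against 0 to 2 on each of the other 8, and their mean was 7.51 there and between 5.26 and 5.99 elsewhere. The part of this array's macrophage markers in the differences from SKPs was not tested. Without that array Il33 (limma adjusted p = 0.0589) and Il1rn (0.0781) were no longer called lower in SKP-derived minus SKP, and Cxcl13 (-0.71, limma adjusted p = 0.0202) and Il1b (-0.62, limma adjusted p = 0.0451) were.

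**Figure D3:**
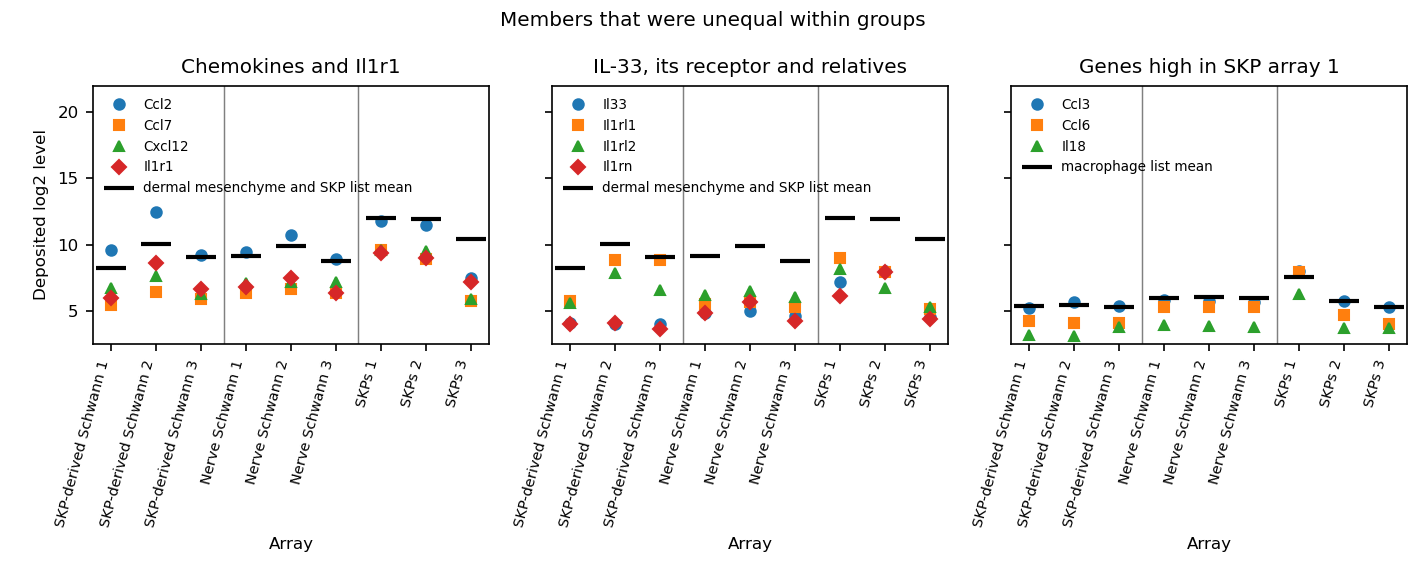
Deposited log2 level on each of the 9 arrays of members that were unequal within groups, with the mean of the dermal mesenchyme and SKP marker list (left and middle) or of the macrophage list (right) as black bars. Ccl7, Cxcl12, Il33, Il1rl1 and Il1rn are low on SKP array 3, and Ccl3, Ccl6 and Il18 are high on SKP array 1 only.

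Between the 2 kinds of Schwann cell no member was called under both scalings. As deposited, 52 members were called lower in SKP-derived than in nerve Schwann cells, against 42.3% of all genes, and 35 of the 52 were dim; 0 were called higher, against 1.33% of all genes. After cyclic loess limma called 0 in either direction, and 3 were higher and 11 lower at an unadjusted p under 0.05. Under both scalings 0.489% of all genes were called higher and 0.6% lower. The median member differed by -0.63 as deposited, against -0.45 over all genes, and by -0.10 after cyclic loess, against -0.02 over all genes.

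The largest loess difference between the Schwann cells was that of Il1rl1. It was 2.78 higher in SKP-derived than in nerve Schwann cells after cyclic loess (SE 1.04, limma adjusted p = 0.188), with SKP-derived arrays 2 and 3 high and array 1 near the nerve arrays. Il34 was 1.38 higher (SE 0.38, limma adjusted p = 0.101) and Il16 1.04 higher (SE 0.37, limma adjusted p = 0.172). Il34 was called as deposited when nerve array 1 was left out (1.38, limma adjusted p = 0.0236) or SKP array 3 (1.01, limma adjusted p = 0.0307), Il16 without SKP-derived array 2 (1.07, limma adjusted p = 0.0416), and Il1rl1 without SKP-derived array 1 (3.34, limma adjusted p = 0.025) or SKP array 3 (2.32, limma adjusted p = 0.029). Il1b was lower by -0.64 (SE 0.15, limma adjusted p = 0.0715) and Il11 by -0.54 (SE 0.11, limma adjusted p = 0.052). Cxcl14 differed by -0.15 (SE 0.31, limma adjusted p = 0.829) and Il13ra1 by 0.03 (SE 0.65, limma adjusted p = 0.986).

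The scaling moved the counts most in the comparisons that hold nerve arrays. As deposited, 13 members were called higher and 17 lower in SKP-derived minus SKP, against 19.3% and 22.3% of all genes, and 54 higher and 9 lower in nerve minus SKP, against 49.7% and 14.9%. Of the 54, 33 were dim. After cyclic loess alone 12 were higher and 21 lower for the SKP-derived cells, against 18.6% and 23.9% of all genes. For the nerve cells 24 were higher and 15 lower, against 22.4% and 25.6% of all genes. The share of calls that were higher was 43.3% as deposited and 36.4% after loess for the SKP-derived cells, with 46.5% and 43.9% over all genes. For the nerve cells it was 85.7% and 61.5%, with 77.0% and 46.6% over all genes. The 45 dim members had a median level of 4.75 in SKP-derived Schwann cells, 5.43 in nerve Schwann cells and 4.80 in SKPs as deposited, and 4.98, 4.99 and 5.06 after cyclic loess. Their median SD between arrays was 0.17, 0.0801 and 0.221 in the same order of groups, so the nerve arrays were also the most alike.

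**Figure D4:**
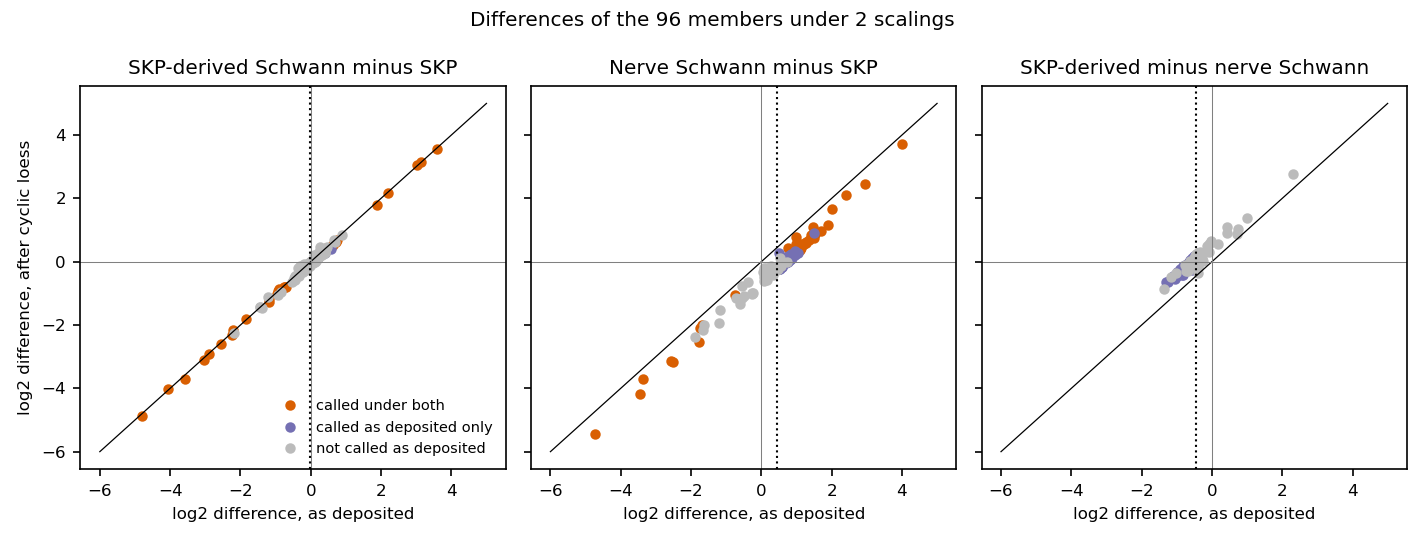
Difference of each of the 96 members as deposited (horizontal) and after cyclic loess (vertical), both in log2 units, for the 3 comparisons; the diagonal marks equal values and the dotted line the median of all genes as deposited. SKP-derived minus SKP lies on the diagonal, nerve minus SKP lies below it, and SKP-derived minus nerve lies above it with no member called under both scalings.

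Genes that act with the members were counted from lists of textbook membership, and each count is to be read against the share of all genes called under both scalings. That share was 17.7% higher and 21.4% lower in SKP-derived minus SKP, and 22.4% higher and 14.9% lower in nerve minus SKP. Of 18 chemokine receptors measured, 5 rose and 1 fell in each kind of Schwann cell, with a median difference of 0.34 in SKP-derived minus SKP and 0.93 in nerve minus SKP (-0.01 and 0.46 over all genes in the same comparisons). After cyclic loess these medians were 0.25 in SKP-derived minus SKP and 0.33 in nerve minus SKP, with -0.03 over all genes in both. Ackr3, the scavenging receptor of CXCL12, rose by 1.45 in the SKP-derived (limma adjusted p = 0.00217) and by 1.74 in the nerve cells (limma adjusted p = 0.00047). Cxcr4, its signalling receptor, rose by 0.99 in SKP-derived Schwann cells (limma adjusted p = 0.0448), a call lost without any of 8 of the 9 arrays. In nerve minus SKP it was not called at 0.81 (limma adjusted p = 0.0637), and was without SKP array 3 (1.25, limma adjusted p = 0.00176). Ccr1, a receptor of Ccl3 and Ccl7, was 4.74, 4.89 and 4.14 in SKP-derived, 4.98, 4.88 and 4.57 in nerve Schwann cells and 8.45, 8.19 and 6.41 in SKPs. It fell by 3.09 in the SKP-derived (limma adjusted p = 0.000666) and by 2.87 in the nerve cells (limma adjusted p = 0.000608). Of 4 chemokines outside the naming rule, Ppbp, a platelet chemokine, rose by 1.39 in nerve Schwann cells (limma adjusted p = 4.7e-05) and was lower in SKP-derived than in nerve cells, at -1.58 (limma adjusted p = 0.00192).

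Of 9 measured gp130 cytokines and receptors outside the rule, 4 rose in SKP-derived Schwann cells (median 0.71) and 7 in nerve Schwann cells (median 1.18, and 0.64 after cyclic loess), against 17.7% and 22.4% of all genes. The receptor chain Cntfr was 9.11, 7.90 and 9.31 in SKP-derived, 9.51, 9.47 and 9.44 in nerve Schwann cells and 6.17, 6.48 and 5.96 in SKPs. It rose by 2.57 in the SKP-derived (limma adjusted p = 0.000238) and by 3.27 in the nerve cells (limma adjusted p = 4.85e-05). The shared receptor chain Lifr rose by 2.46 in the SKP-derived and by 2.41 in the nerve cells, and the ligand Cntf by 2.44 and by 1.44 in those cells, with limma adjusted p of at most 0.00571. Lif, a cytokine of injured nerve, rose by 1.65 in nerve Schwann cells (limma adjusted p = 0.00137). In SKP-derived minus SKP it was not called at 0.75 (limma adjusted p = 0.0796) and was without SKP-derived array 3 (1.10, limma adjusted p = 0.00953). Osmr, the oncostatin M receptor chain, was not called, at -0.61 in SKP-derived minus SKP (limma adjusted p = 0.31) and 0.21 in nerve minus SKP (limma adjusted p = 0.706). It was called in the first of these without SKP-derived array 2 (-1.15, limma adjusted p = 0.0308).

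Of 15 JAK-STAT genes, 4 rose and 8 fell in SKP-derived Schwann cells (median -0.59) and 3 rose and 4 fell in nerve Schwann cells (median 0.08, and -0.16 after cyclic loess). Of all genes 21.4% fell in the SKP-derived and 14.9% in the nerve cells. The feedback inhibitor Socs2 rose by 2.87 in the SKP-derived (limma adjusted p = 3.86e-05) and by 3.29 in the nerve cells (limma adjusted p = 1.68e-05). Stat3, the main gp130 effector, rose by 0.92 in the SKP-derived (limma adjusted p = 0.00185) and by 1.67 in the nerve cells (limma adjusted p = 4.94e-05). The kinases Jak1 and Jak2 fell by 1.98 and 1.50 in the SKP-derived cells and by 1.48 and 1.37 in the nerve cells. Socs3 was not called, at -0.31 in SKP-derived minus SKP (limma adjusted p = 0.613; -0.88 and 0.0366 without SKP array 3) and 0.43 in nerve minus SKP (limma adjusted p = 0.424).

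Of 17 genes of IL-1 and Toll-like receptor signalling, 1 rose and 7 fell in SKP-derived Schwann cells (median -0.42) and 2 rose and 5 fell in nerve Schwann cells (median -0.11, and -0.39 after cyclic loess), against falls in 21.4% of all genes in the SKP-derived and 14.9% in the nerve cells. Cd14, the co-receptor of Tlr4, was 5.34, 6.22 and 4.94 in SKP-derived, 6.42, 6.44 and 6.41 in nerve Schwann cells and 10.77, 10.25 and 9.18 in SKPs. Cd14 fell by 4.57 in the SKP-derived (limma adjusted p = 3.52e-05) and by 3.64 in the nerve cells (limma adjusted p = 9.31e-05). Tlr4 fell by 3.35 and Casp1, the enzyme that matures IL-1 beta and IL-18, by 2.44 in the SKP-derived cells, and in the nerve cells Tlr4 fell by 3.08 and Casp1 fell by 2.55, with limma adjusted p of at most 0.00785.

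Of 15 NF-kB genes, 1 rose and 9 fell in SKP-derived Schwann cells (median -0.55) and 1 rose and 5 fell in nerve Schwann cells (median 0.15, and -0.39 after cyclic loess), with the same shares over all genes. The inhibitor Nfkbia fell by 1.70 in the SKP-derived (limma adjusted p = 0.00036) and by 1.13 in the nerve cells (limma adjusted p = 0.00201). Rela, the subunit it retains in the cytoplasm, rose by 1.47 in the SKP-derived (limma adjusted p = 8.15e-05) and by 1.97 in the nerve cells (limma adjusted p = 1.54e-05). Of 19 genes of the TNF family and colony-stimulating factors, 4 fell in SKP-derived Schwann cells (median -0.15), and 3 rose and 3 fell in nerve Schwann cells (median 0.29, and -0.21 after cyclic loess). Over all genes 21.4% fell in the SKP-derived cells, and 22.4% rose and 14.9% fell in the nerve cells. Tnfrsf1b, a TNF receptor, fell by 3.72 in the SKP-derived (limma adjusted p = 9.23e-06) and by 2.90 in the nerve cells (limma adjusted p = 3.08e-05). Tnfrsf11b, the decoy receptor osteoprotegerin, fell by 1.91 in the SKP-derived (limma adjusted p = 0.000222) and by 2.28 in the nerve cells (limma adjusted p = 6.07e-05).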

How the data were processed

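Cultured rat cells in 3 groups of 3 arrays were compared. The log2 values were deposited by the authors for 29214 features and come from RMA as run in Affymetrix Expression Console according to the submitters' processing notes. Versions, genome build and joint normalisation of the 9 arrays were not given in the sources used here. RMA's background correction compresses differences between dim features, and precision is limited by the number of arrays. All 9 columns were used.

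Gene names came from the platform annotation, where 15310 features have 1 symbol, 323 several and 13581 none; of several features of a gene (527 genes), that with the highest mean was kept. No member had several. All 96 Entrez identifiers were found in RefSeq GRCr8, and 0 symbols changed. Group means of all 9 arrays were fitted with limma 3.58.1 (lmFit, eBayes) in R 4.3.3, with 6 residual degrees of freedom and Benjamini-Hochberg adjustment over 14506 genes. Every adjusted p is from this fit unless another setting is named. The fit was tested on simulated data with the same spread in every group and no offset between arrays. That test does not cover the offset of the nerve arrays or the unequal spread of the groups. Upstream sequences come from the RefSeq table of GRCr8.

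Named members are, for each comparison, up to 10 rises and 10 falls with the largest difference that were called as deposited and after cyclic loess with groups that did not overlap, and 26 fixed members; of each pathway list, up to 4 called genes and 7 fixed genes. Ccl3, Ccl6, Ccl27, Il17re, Il20, Il17f, Il36a, Il7r, Il1rl2 and the remaining chemokines were named after their values were seen. Members and lists were chosen with earlier results of these data known. Alternatives were other scalings, a filter on low levels, a 2-fold minimum, a stricter threshold of 0.01, other variance settings, leaving out each array, and the replicate number as a block. Correlations of same-numbered arrays' deviations lay between -0.12 and 0.29, and those of different-numbered arrays between -0.27 and 0.18. Between SKP-derived and nerve Schwann cells the same-numbered values were 0.07, 0.29 and 0.15, and most different-numbered values were negative. These ranges do not settle whether numbers are pairs. Numbers were not taken as pairs in the main fit, and counts with the number as a block are given below. The labels call the samples independent, with no animal named.

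Marker lists for other cell types were also summarised. Mean levels were between 5.03 and 5.81 for 14 lymphocyte markers, 4.35 and 5.14 for 9 mast cell markers, 4.67 and 5.51 for 8 neutrophil markers, 5.19 and 6.17 for 9 endothelial markers, 4.85 and 6.38 for 6 keratinocyte markers and 6.43 and 7.49 for 10 perineurial and pericyte markers, over the 9 arrays.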

Additional observations from a re-analysis of the deposited data

How the results depend on the processing

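Limits: 3 arrays per group, an offset of the nerve arrays that is strongest for dim genes, and SKP arrays that differ among themselves limit these comparisons, and levels near the background of the array cannot be ranked. For SKP-derived minus SKP, 13 members were called higher and 17 lower. The higher count was 4 among genes at or above the median level, 5 with a 2-fold minimum and 6 at an adjusted p under 0.01, and between 9 and 18 with each array left out. The lower count was 5 among genes at or above the median level, 11 with a 2-fold minimum and between 15 and 24 with each array left out. It was 28 after cyclic loess without SKP array 3. Shares of all genes called with an array left out are not given here.

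For nerve minus SKP, 54 were called higher and 9 lower. The higher count was 24 after median centring, 24 after cyclic loess, 22 after quantile normalisation, 6 among genes at or above the median level, 24 with a 2-fold minimum, 24 under the deposited scale and cyclic loess together and 21 under all 4 scalings. With each array left out it lay between 50 and 56, and after cyclic loess it was 22, 25 and 24 without SKP-derived arrays 1, 2 and 3, 17, 18 and 18 without nerve arrays 1, 2 and 3, and 19, 21 and 20 without SKP arrays 1, 2 and 3. The lower count was 17 after median centring, 15 after cyclic loess, 17 after quantile normalisation, 4 among genes at or above the median level, and between 7 and 17 with each array left out (12 and 24 after cyclic loess). The level filter tests fewer members.

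For SKP-derived minus nerve, 0 were called higher and 52 lower by limma, with 2 higher and 60 lower at an unadjusted p under 0.05. The higher count was 1 after median centring (Il34), 2 with only the 6 arrays compared (Il1rl1 and Il34), 1 with the replicate block (Il34), and between 0 and 2 with each array left out (0 and 1 after cyclic loess). The lower count was 3 after median centring (Il1b, Il1rapl1 and Il11), 0 after cyclic loess, 1 after quantile normalisation (Il11), 0 among genes at or above the median level, 8 with a 2-fold minimum, 29 at an adjusted p under 0.01, 0 under the deposited scale and cyclic loess together and 0 under all 4 scalings. With each array left out it lay between 37 and 59, and after cyclic loess between 0 and 1.

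With the replicate number as a block the counts were 13 higher and 18 lower, 53 higher and 10 lower, and 1 higher and 51 lower for the 3 comparisons in the same sequence. In nerve minus SKP the difference of Il11 was -0.53 after median centring, -0.49 after cyclic loess and -0.45 after quantile normalisation, that of Il1rap was -0.53 after median centring, and that of Il10rb was -0.10 after median centring. Over all named members and settings, 1481 of 1676 values kept direction and call, 52 gained the call, 77 lost it, 5 changed sign with a call on the deposited scale or under the alternative, and 61 changed sign without a call under either, 11 of them after cyclic loess. Settings that combine scalings, or leave out an array after cyclic loess, were chosen after seeing the data. The cause of the other changes was not tested.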

Other observations

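A further feature names Il13ra1 together with its pseudogene and was left out of the tests. It read 3.88, 6.97 and 4.94 in SKP-derived Schwann cells, 5.08, 6.42 and 5.71 in nerve Schwann cells, and 8.90, 8.40 and 7.57 in SKPs.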
